A study of Mus musculus with 10 samples.

Results

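Adipogenic and lipid-handling genes were examined as a set of 10 genes, Pparg, Cebpa, Cebpb, Cebpd, Lpl, Fabp4, Cd36, Plin2, Apoe and Adipoq, which were found by gene symbol among the 55486 genes of the count table. Levels are given in CPM, the read count of a gene scaled to the total count of its library. RNA sequencing covered 10 libraries from 5 gels of collagen mixed with an extract of basement membrane. The normal fibroblasts (NFs) came from the mammary gland of mTmG mice aged 8 weeks and were sorted into CD26- and CD26+ cells by the surface protein encoded by Dpp4, and then expanded for a week in flat culture. In these mice every cell is red (Tomato) until Cre recombinase turns it green (GFP), and only the CD26+ NFs had received a Cre-expressing adenovirus, so virus exposure and subset cannot be told apart. Gel 1 held both NF subsets mixed 1:1 without tumor cells and gave 1 library per subset. Gels 2 and 3 held only tumor cells of the lines 13-MCB-17 and 10-SJK-221, derived from tumors of mice that develop invasive lobular carcinoma (ILC) after WapCre-driven loss of Cdh1 from mammary epithelium. Gels 4 and 5 held both NF subsets together with 13-MCB-17 or 10-SJK-221 tumor cells, and each gave a CD26- NF, a CD26+ NF and a tumor library. Cells were sorted by color after 7 days. Each line was a single line, NFs were pooled from several mice per isolation, and the study noted that CD26 itself is soon lost in culture. Only gel 1 held NFs alone, so culture condition and gel cannot be told apart. Gels 4 and 5 differed in tumor line, so for co-cultured NFs gel and line cannot be told apart either. Nothing in the labels ties the gels to separate isolations, and p-values measure only the spread between these libraries.

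PPARγ, encoded by Pparg, is the master regulator of fat cell differentiation. C/EBPβ and C/EBPδ act early in that program and precede PPARγ and C/EBPα, which sustain each other and switch on lipid genes. Lipoprotein lipase (Lpl) frees fatty acids from lipoproteins, CD36 takes them up, FABP4 binds them inside the cell, PLIN2 coats the droplets in which they are stored, apolipoprotein E (Apoe) is the ligand by which lipoproteins bind their receptors, and adiponectin (Adipoq) is a hormone made by fat cells. Mammary fibroblasts lie within a fat pad, and some stromal fibroblasts can turn into fat cells.

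Promoter sequences in RefSeq (GRCm38.p6) were available for 7 of the 10 genes and were searched for the core letters bound by C/EBP proteins (TTGCNNAA, both strands) and for a pair of AGGNCA letters with 1 base between them (both strands), the form of site bound by PPARγ. The window ran from 250 bases before to 50 bases after each start site. The C/EBP core was present at 1 of the 3 annotated starts of Pparg, the most downstream, which gives the adipocyte-enriched isoform, and in no other window of these genes. One match began at position -215 (TTGCCAAA, given strand) and one at position -16 (TTTTGCAA, other strand). Of 32851 promoters of the same length, 10.8% held a C/EBP core and 0.381% held the AGGNCA pair, which was found at none of these genes. A match is a string of letters and no evidence of binding. The 250 bases before this start (chromosome 6, plus strand) are shown for Pparg, which fell in NFs of both subsets, with those of Plin2 (chromosome 4, minus strand), which rose, and of the most upstream start of Apoe (chromosome 7, minus strand), which fell. Each is written 5′ to 3′ along its gene, with capitals for the C/EBP core.
Pparg, start 3, chr6:115421816-115422065: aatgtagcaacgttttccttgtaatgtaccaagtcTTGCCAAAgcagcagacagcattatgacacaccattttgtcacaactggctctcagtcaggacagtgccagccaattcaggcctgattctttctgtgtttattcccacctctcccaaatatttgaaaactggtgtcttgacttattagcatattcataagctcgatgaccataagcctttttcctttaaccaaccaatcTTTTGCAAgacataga
Plin2, chr4:86670060-86670309: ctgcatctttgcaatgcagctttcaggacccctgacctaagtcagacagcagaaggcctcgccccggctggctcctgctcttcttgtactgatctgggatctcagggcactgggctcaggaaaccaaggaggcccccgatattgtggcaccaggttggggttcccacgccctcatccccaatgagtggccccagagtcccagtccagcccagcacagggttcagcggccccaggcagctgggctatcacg
Apoe, start 1, chr7:19699189-19699438: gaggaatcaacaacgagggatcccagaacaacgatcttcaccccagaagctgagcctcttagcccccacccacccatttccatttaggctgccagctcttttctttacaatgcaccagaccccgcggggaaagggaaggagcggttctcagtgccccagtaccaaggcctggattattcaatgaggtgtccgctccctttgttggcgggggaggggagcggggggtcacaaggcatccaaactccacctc
Counts per gene did not tell the 3 starts of Pparg apart.

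Libraries held 14142334 to 18408940 counts, and 3 counts, the most that an observed 0 allows, equal 0.163 to 0.212 CPM (counting error only). Dpp4 was near 0 in every library (at most 0.771 CPM), so the subsets rest on the sort and their labels. Fibroblast markers (7 genes) summed to 74620 and 69040 CPM in CD26- and CD26+ NFs alone, and to 38.7 to 177 CPM in tumor cells. Their sum was lower in the 4 co-cultured NF libraries, at 37530 and 40810 CPM for the CD26- and 22680 and 28050 CPM for the CD26+ subset. Epithelial markers (8 genes) summed to 2945 to 3843 CPM in tumor cells, at most 0.14 CPM in NFs alone and, in gels 4 and 5, 59.1 and 83.4 CPM for CD26- NFs and 90.6 and 184 CPM for CD26+ NFs, where single markers had a median of 1.96% to 4.45% of their level in the tumor cells of the same gel. Adipocyte markers (7 genes, among them Adipoq) summed to 2.17 and 7.86 CPM in CD26- and CD26+ NFs alone, between 0.849 and 1.61 CPM after co-culture of NFs, and at most 1.02 CPM in tumor cells, and Cidea was at 0 in all 6 NF libraries. Of 8 macrophage markers, Adgre1 was at 0 in all 6 NF libraries and Ptprc had at most 1 count. Their sum was, in gels 1, 4 and 5, 11.6, 47.3 and 32.1 CPM for CD26- NFs and 13.4, 64.8 and 40.9 CPM for CD26+ NFs. In tumor cells (13-MCB-17 and 10-SJK-221) it was 301 and 100.8 CPM alone and 92.75 and 48.25 CPM in co-culture. Endothelial markers (6 genes) summed, in gels 1, 4 and 5, to 9.76, 24.5 and 14.9 CPM for CD26+ NFs and to 4.60, 10.2 and 8.06 CPM for CD26- NFs, with Emcn at 0 in all 3 CD26+ libraries.

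Co-culture with tumor cells went with lower expression of most of the adipogenic genes in NFs and with higher expression of the droplet coat gene Plin2. In the fit over all 6 NF libraries, 6 of the 10 genes fell (Pparg, Cebpa, Cebpb, Cebpd, Lpl and Apoe) and 1 rose (Plin2), against 22.9% of all 15013 tested genes that fell and 25.9% that rose. Within the CD26- subset 7 fell and 1 rose (14.1% and 16.6% of 16231 genes), and within the CD26+ subset 6 fell and 1 rose (15.2% and 19%). Without gel 5 the Cebpd call of the joint fit was lost (adjusted p = 0.066). All 10 genes passed the filter on low counts in these fits. These calls used edgeR's quasi-likelihood test with Benjamini-Hochberg adjustment over all genes tested and a threshold of 0.05. Within each subset, the sums of adipocyte and of fibroblast markers given above were lower in the co-cultured libraries too. Those of epithelial, macrophage and endothelial markers were higher (the part of these markers in the result was not tested). The median log2 fold change of the 10 genes was -0.96 in the joint fit, beside 0.02 for all genes. The set was chosen with earlier results of these data known. Counts beside shares of all genes, here and below, therefore describe the set and do not test it.

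CD26+ NFs expressed more of the lipid-handling genes than CD26- NFs of the same gel. Over the 3 gels, Lpl, Fabp4, Cd36, Plin2 and Apoe were higher in CD26+ NFs and none of the 10 genes was lower, against 3.93% of all tested genes that were higher and 3.6% that were lower. Within co-culture, 7 of the 10 genes were higher (these 5 with Pparg and Cebpd) and none was lower, against 3.48% and 2.53% of all genes. The way the set was chosen limits these counts too. By CPM ratio, 9 of the 10 genes, Adipoq being the exception, were higher in CD26+ NFs in all 3 gels, which held for 36.6% of the 14870 genes that reached 1 CPM in an NF library. Endothelial cells are known to express Cd36 and Fabp4, and the endothelial marker sums above were also higher in the CD26+ library of every gel. So were the macrophage sums, the epithelial sums of gels 4 and 5 and the adipocyte sums of gels 1 and 4. The adipocyte sum of gel 5 and the fibroblast sums of every gel were lower. Cells with the endothelial protein CD31 or the leukocyte protein CD45 had been removed when the NFs were isolated (the part of these markers in the result was not tested). The calls depended on single libraries: without gel 5 no gene of the set passed over 3 gels (17 genes of the whole table did), without gel 4 Lpl (adjusted p = 0.0827) and Cd36 (adjusted p = 0.167) were lost, and without the CD26+ library of gel 4 or of gel 5 none passed within co-culture (0 and 2 genes of the whole table did). The Cd36 call over 3 gels was also lost with a filter of 1 CPM in 2 libraries (adjusted p = 0.0509). Within co-culture the Apoe call was lost with the filter of 1 count (adjusted p = 0.058). It was lost as well without the CD26- library of gel 4 (log2 difference 0.851) or of gel 5 (0.717). Scaled to library totals, the median of all genes moved to 0.16 over 3 gels and 0.18 within co-culture, and the split of all calls moved from 590 higher and 540 lower to 1120 and 263, and from 565 and 410 to 1094 and 273.

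**Figure D1:**
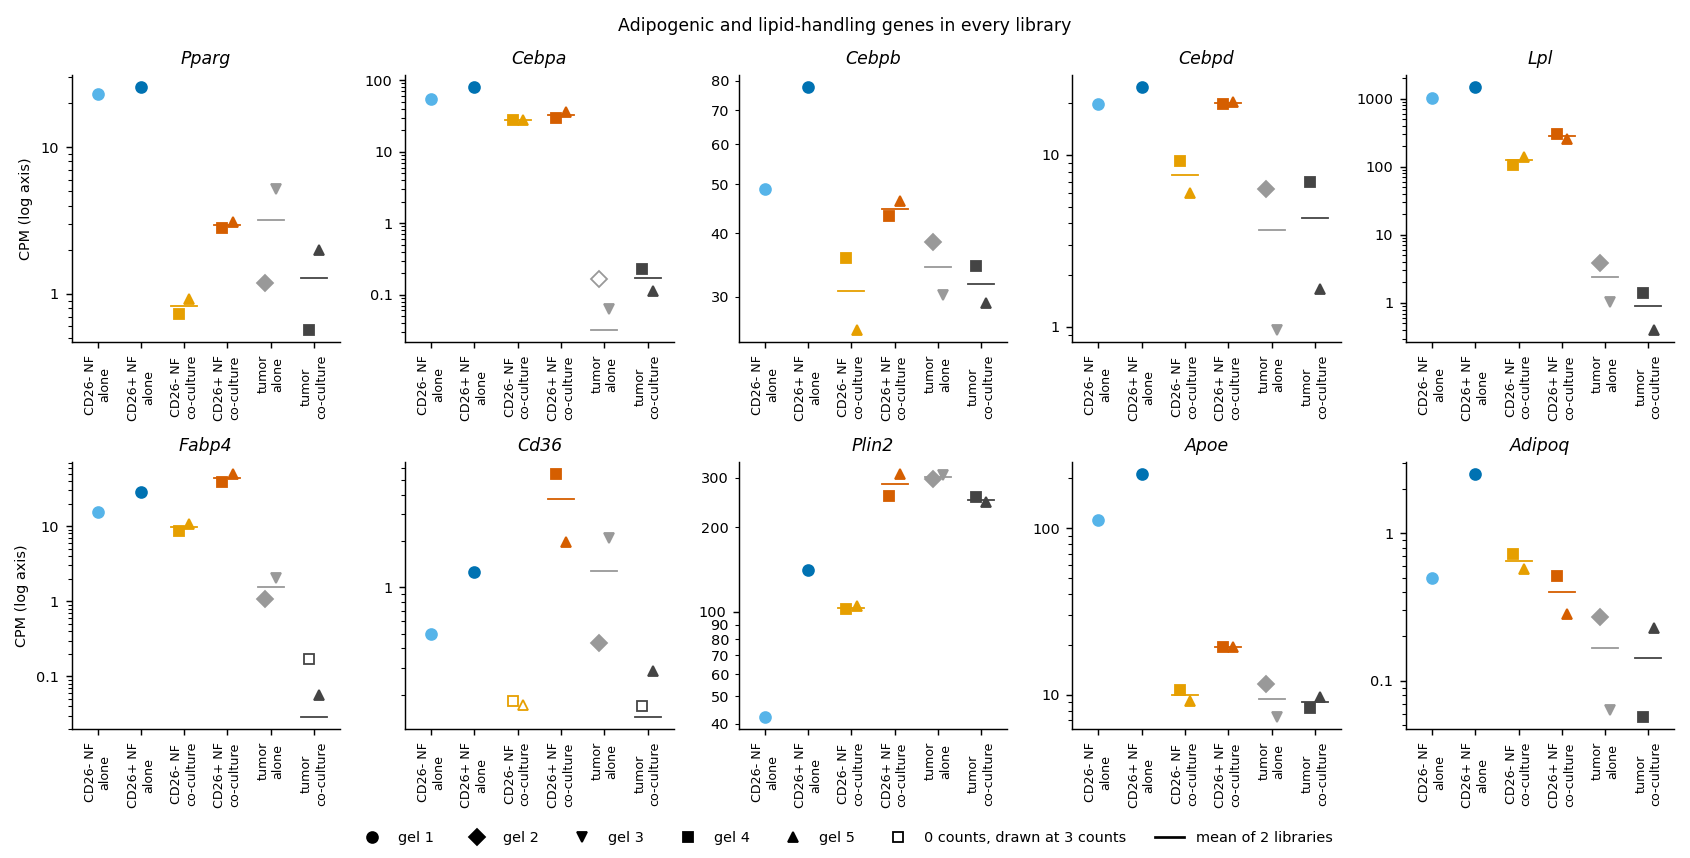
CPM (log axis) of the 10 genes in each of the 10 libraries, by group, with 1 point per library, the gel as the symbol and a line at the mean of 2 libraries. Open symbols are libraries with 0 counts, drawn at the level of 3 counts. Lpl and Apoe sit highest in the 2 libraries of NFs alone, while Plin2 is lowest in CD26- NFs alone at 42.2 CPM and highest in CD26+ NFs of gel 5 at 310 CPM.

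Among the regulators, Pparg (ENSMUSG00000000440, chromosome 6, 115360951 to 115490399, GRCm38) stood at 23.2 CPM in the CD26- and 25.9 CPM in the CD26+ library of NFs alone. In gels 4 and 5 it stood at 0.727 and 0.921 CPM in CD26- NFs (from 12 and 16 counts), and at 2.83 and 3.11 CPM in CD26+ NFs (44 counts each). All 4 co-cultured libraries lay far below both libraries of NFs alone, and in co-culture both CD26+ libraries were above both CD26- libraries. The log2 fold change of co-culture against alone was -4.73 (SE 0.32, adjusted p = 1.28e-07) in CD26- NFs and -3.08 (SE 0.28, adjusted p = 2.41e-06) in CD26+ NFs. CD26+ NFs had 1.12 times the CPM of CD26- NFs in gel 1, 3.89 times in gel 4 and 3.38 times in gel 5, and within co-culture the log2 difference was 1.66 (SE 0.32, adjusted p = 0.00849). Tumor cells had 1.20 and 5.22 CPM alone (13-MCB-17 and 10-SJK-221) and 0.566 and 2.00 CPM in co-culture, lower in co-culture in both lines (log2 fold change -1.30, SE 0.36, adjusted p = 0.0327), a call that was lost with DESeq2 (adjusted p = 0.335), without the line term (adjusted p = 0.542) and without any 1 of the 4 tumor libraries (adjusted p 0.113 to 0.370). Co-cultured NFs and co-cultured tumor cells overlapped (log2 difference 0.50, SE 0.64, adjusted p = 0.543).

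Cebpa (ENSMUSG00000034957, chromosome 7, 35119293 to 35121928), the partner of PPARγ in mature fat cells, had 54.7 and 81.1 CPM in CD26- and CD26+ NFs alone. In gels 4 and 5 its level was 27.3 and 27.7 CPM for CD26- NFs and 29.2 and 36.3 CPM for CD26+ NFs. Every co-cultured library was below both libraries of NFs alone, and the fall was smaller than that of Pparg: -0.93 on the log2 scale (SE 0.21, adjusted p = 0.00489) in CD26- NFs and -1.27 (SE 0.21, adjusted p = 0.000448) in CD26+ NFs. The CD26- call was lost without the CD26- library of gel 4 (adjusted p = 0.0547). The subsets did not differ beyond their spread within co-culture (log2 difference 0.08, SE 0.18, adjusted p = 0.859). Tumor libraries had 0 to 4 counts of Cebpa, at most 0.226 CPM and far below every NF library.

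Cebpb (ENSMUSG00000056501, chromosome 2, 167688915 to 167690418), an early C/EBP that also responds to inflammatory signals, was the most evenly spread of the 10 genes. Its level was 48.9 and 77.8 CPM in CD26- and CD26+ NFs alone, and 29.2 to 38.5 CPM in the 4 tumor libraries. In gels 4 and 5 it was 35.8 and 25.8 CPM for CD26- NFs and 43.2 and 46.2 CPM for CD26+ NFs. Co-cultured CD26- NFs overlapped with tumor cells, and co-cultured CD26+ NFs lay above them. Cebpb fell in co-cultured CD26+ NFs (log2 fold change -0.76, SE 0.22, adjusted p = 0.0156) and in CD26- NFs (-0.61, SE 0.22, adjusted p = 0.0498), and neither call was firm. The CD26+ call was lost without either co-cultured CD26+ library (adjusted p = 0.113 for gel 4 and 0.0531 for gel 5). The CD26- call was lost with RLE scaling (adjusted p = 0.0507), DESeq2 (adjusted p = 0.0992) and the filter of 1 count (adjusted p = 0.104), and without any 1 of the 4 co-cultured NF libraries (adjusted p 0.0627 to 0.326). Exons of the opposite-strand gene Tmem189 overlap 20.7% of its exon length, and use of strand in the counting was not given in the sources used here.

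Cebpd (ENSMUSG00000071637, chromosome 16, 15887286 to 15891031), the other early C/EBP, fell in CD26- NFs. It had 19.8 CPM in CD26- NFs alone against 9.27 and 5.99 CPM in co-culture, and 25.0 CPM in CD26+ NFs alone against 19.9 and 20.4 CPM in co-culture. Both co-cultured CD26- libraries lay below every CD26+ library. The log2 fold change of co-culture against alone was -1.32 (SE 0.26, adjusted p = 0.0016) in CD26- NFs and -0.27 (SE 0.26, adjusted p = 0.432) in CD26+ NFs, and the subsets differed within co-culture by 1.23 (SE 0.22, adjusted p = 0.00492). Among tumor libraries the lines stood apart, with 6.36 and 6.96 CPM in 13-MCB-17 and 0.954 and 1.65 CPM in 10-SJK-221 (alone and co-culture). Exons of the opposite-strand gene Spidr overlap 15% of its exon length.

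Lpl (ENSMUSG00000015568, chromosome 8, 68880491 to 68907448), the secreted lipase, was the most abundant of the set in NFs alone. NFs alone held 1021 CPM (CD26-) and 1495 CPM (CD26+). After co-culture in gels 4 and 5, CD26- NFs held 107 and 141 CPM and CD26+ NFs 302 and 254 CPM. The 4 co-cultured libraries lay far below both libraries of NFs alone, and CD26+ NFs were above CD26- NFs in each gel (1.46, 2.82 and 1.81 times in gels 1, 4 and 5). The log2 fold change of co-culture against alone was -2.97 (SE 0.23, adjusted p = 5.64e-07) in CD26- NFs and -2.39 (SE 0.23, adjusted p = 4.42e-06) in CD26+ NFs. CD26+ NFs were higher by 0.80 over 3 gels (SE 0.18, adjusted p = 0.0305) and by 0.98 within co-culture (SE 0.20, adjusted p = 0.0101). Tumor cells had 3.86 and 1.02 CPM alone and 1.41 and 0.399 CPM in co-culture (13-MCB-17 and 10-SJK-221), all below every NF library. Lpl was lower in co-culture in both lines (log2 fold change -1.44, SE 0.39, adjusted p = 0.0319), a call lost with DESeq2 (adjusted p = 0.342), without the line term (adjusted p = 0.510) and without either 13-MCB-17 library (adjusted p = 0.516 alone and 0.520 in co-culture). Single fibroblast markers in co-cultured tumor cells had a median of 0.171% (gel 4) and 0.164% (gel 5) of their level in the NFs of the gel. They ranged from 0.0444% to 8.94% and from 0.0454% to 9.92%. Pdgfra was the highest, and lone tumor cells held 67.7 and 35.6 CPM of it. At the median share, the NF level of Lpl equals 0.349 and 0.323 CPM. These values lie beside 1.41 and 0.399 CPM measured.

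Fabp4 (ENSMUSG00000062515, chromosome 3, 10204088 to 10208576), which carries fatty acids in the cytosol of fat cells, macrophages and capillary endothelium, set the subsets apart. In NFs alone it was at 15.5 CPM (CD26-) and 28.4 CPM (CD26+). In gels 4 and 5 it was at 8.54 and 10.8 CPM in CD26- NFs, against 38.3 and 49.6 CPM in their CD26+ counterparts. CD26- NFs in co-culture lay below, and CD26+ NFs in co-culture above, every other NF library. Neither move against NFs alone passed the test, with a log2 fold change of -0.61 (SE 0.26, adjusted p = 0.0945) in CD26- NFs and 0.67 (SE 0.26, adjusted p = 0.0583) in CD26+ NFs. The subset difference passed over 3 gels (1.59, SE 0.26, adjusted p = 0.0109) and within co-culture (2.00, SE 0.22, adjusted p = 0.000125), where CD26+ NFs had 4.48 and 4.59 times the CPM of CD26- NFs. Tumor cells had 20 and 32 counts alone (1.09 and 2.04 CPM) and 0 and 1 counts in co-culture, a ratio of 53.7 (95% exact interval 9.21 to 2160, counting error only), and the fall passed the test (adjusted p = 0.00229) but not without the line term (adjusted p = 0.113).

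Cd36 (ENSMUSG00000002944, chromosome 5, 17781690 to 17888801), the fatty acid translocase, was low throughout. CD26- NFs had 8 counts alone (0.497 CPM) and 0 in both co-cultured libraries, while CD26+ NFs had 18 counts alone (1.26 CPM) and 85 and 28 counts in co-culture (5.46 and 1.98 CPM). The co-cultured CD26+ libraries were the highest NF libraries and the co-cultured CD26- libraries the lowest. Within co-culture the CD26+ library was at least 30.0-fold higher in gel 4 and at least 11.5-fold higher in gel 5 (against 3 counts in the CD26- library), and the difference passed the test (adjusted p = 0.00101). In CD26- NFs the co-cultured group was at least 2.8-fold lower than the library grown alone (adjusted p = 0.023), a call lost without either co-cultured CD26- library or the CD26+ library of gel 4 (adjusted p 0.0527 to 0.0826). In CD26+ NFs the log2 fold change was 1.59 (SE 0.71, adjusted p = 0.102). Tumor cells had 8 and 33 counts alone and 0 and 5 in co-culture and did not pass the filter on low counts in the tumor comparison.

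Plin2 (ENSMUSG00000028494, chromosome 4, 86648386 to 86670060), the droplet coat protein made in most cells that store lipid, was the member that rose. CD26- NFs held 42.2 CPM alone and 103 and 105 CPM after co-culture (gels 4 and 5). CD26+ NFs held 141 CPM alone and 258 and 310 CPM after co-culture. Within each subset both co-cultured libraries were above the library grown alone, and in each gel the CD26+ library was above the CD26- library (3.35, 2.52 and 2.96 times in gels 1, 4 and 5). The log2 fold change of co-culture against alone was 1.36 (SE 0.23, adjusted p = 0.000482) in CD26- NFs and 1.05 (SE 0.22, adjusted p = 0.00262) in CD26+ NFs. CD26+ NFs were higher by 1.39 over 3 gels (SE 0.14, adjusted p = 0.00121) and by 1.28 within co-culture (SE 0.18, adjusted p = 0.000822). Tumor cells had 297 and 308 CPM alone and 256 and 246 CPM in co-culture, so co-cultured CD26+ NFs reached the level of tumor cells and CD26- NFs did not. The fall in tumor cells did not pass the test (log2 fold change -0.29, SE 0.11, adjusted p = 0.0817). At the share of epithelial markers found in co-cultured NFs, the Plin2 level of tumor cells equals 5.02 to 10.9 CPM (its part in the result was not tested).

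Apoe (ENSMUSG00000002985, chromosome 7, 19696109 to 19699188), the receptor ligand carried on lipoproteins, fell about as much in either subset. CD26- NFs held 113 CPM alone and 10.7 and 9.21 CPM after co-culture, and CD26+ NFs held 212 CPM alone and 19.3 CPM after co-culture in either gel. All co-cultured libraries lay below both libraries of NFs alone, and co-cultured CD26- NFs overlapped with tumor cells, which had 11.6 and 7.32 CPM alone and 8.31 and 9.70 CPM in co-culture. The log2 fold change was -3.44 (SE 0.20, adjusted p = 4.05e-08) in CD26- NFs and -3.42 (SE 0.20, adjusted p = 4.72e-08) in CD26+ NFs. CD26+ NFs were higher by 0.79 over 3 gels (SE 0.12, adjusted p = 0.00728), with 1.88, 1.80 and 2.10 times the CPM of CD26- NFs in gels 1, 4 and 5. Tumor cells did not differ detectably by culture (log2 fold change -0.08, SE 0.24, adjusted p = 0.859).

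Adipoq (ENSMUSG00000022878, chromosome 16, 23146536 to 23158028), the adipocyte hormone, was barely expressed. CD26+ NFs held 2.53 CPM alone (36 counts) and 0.514 and 0.283 CPM after co-culture. CD26- NFs held 0.497 CPM alone and 0.727 and 0.576 CPM after co-culture, and tumor libraries 0.0566 to 0.272 CPM. A single library, CD26+ NFs alone, stood above the others. The fall in CD26+ NFs passed the test (log2 fold change -2.59, SE 0.71, adjusted p = 0.0133) and was lost with DESeq2 (adjusted p = 0.101). No other member of the set had the subsets in opposite order between gel 1 and the co-cultured gels. In bulk libraries such as these, fewer expressing cells and less RNA per cell cannot be told apart.

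**Figure D2:**
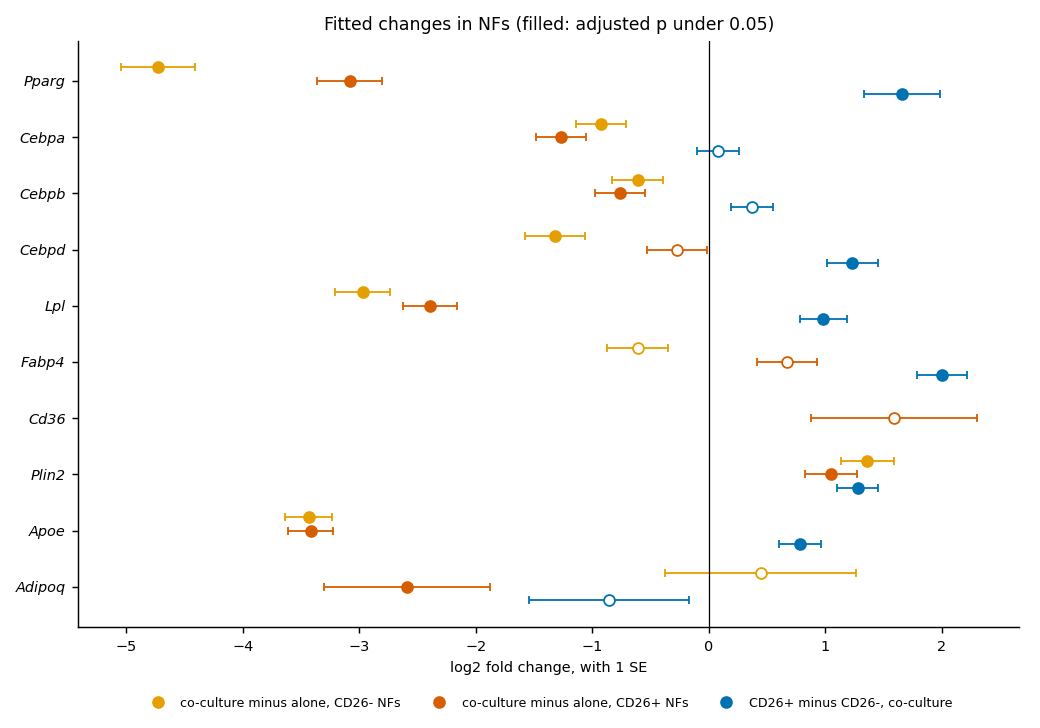
Log2 fold changes with 1 SE for the 10 genes in 3 comparisons of NFs. Filled points had an adjusted p under 0.05, and Cd36 is drawn only for CD26+ NFs because both co-cultured CD26- libraries had 0 counts. Plin2 is the only gene with all 3 points filled on the right of 0, while both co-culture points of Pparg (-4.73 and -3.08), Lpl and Apoe are filled and on the left of 0.

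The response of the subsets to co-culture was compared directly by the interaction of subset and culture. None of the 10 genes passed in edgeR (against 0.376% of all genes), none passed in DESeq2 (0.598%), and 5 had an unadjusted p under 0.05 in edgeR and 4 in DESeq2 (7.79% and 4.33% of all genes). The differences of the log2 response, CD26+ minus CD26-, were 1.65 for Pparg (SE 0.45, adjusted p = 0.192), 1.28 for Fabp4 (SE 0.37, adjusted p = 0.235), 1.05 for Cebpd (SE 0.37, adjusted p = 0.439), 0.58 for Lpl (SE 0.34, adjusted p = 0.777) and 0.02 for Apoe (SE 0.28, adjusted p = 1.00). They were -3.04 for Adipoq (SE 1.10, adjusted p = 0.455), -0.34 for Cebpa (SE 0.31, adjusted p = 0.921), -0.32 for Plin2 (SE 0.30, adjusted p = 0.934) and -0.15 for Cebpb (SE 0.31, adjusted p = 0.992). The 5 with an unadjusted p under 0.05 in edgeR were Pparg, Cebpd, Fabp4, Cd36 (adjusted p = 0.152) and Adipoq. With the gel as a block, 3 passed: Pparg (adjusted p = 0.0138), Fabp4 (adjusted p = 0.00439) and Cd36 (adjusted p = 0.00174), where the block raised the share of all genes called to 2.43%. That fit left almost no spread of each gene's own to estimate, so its p-values rest on the spread shared over all genes. The subset ratios by gel show the same values without a model. For these 3 genes and for Cebpd and Lpl the ratio was lower in gel 1 than in either co-cultured gel, while for Plin2, Cebpa and Adipoq it was highest in gel 1.

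**Figure D3:**
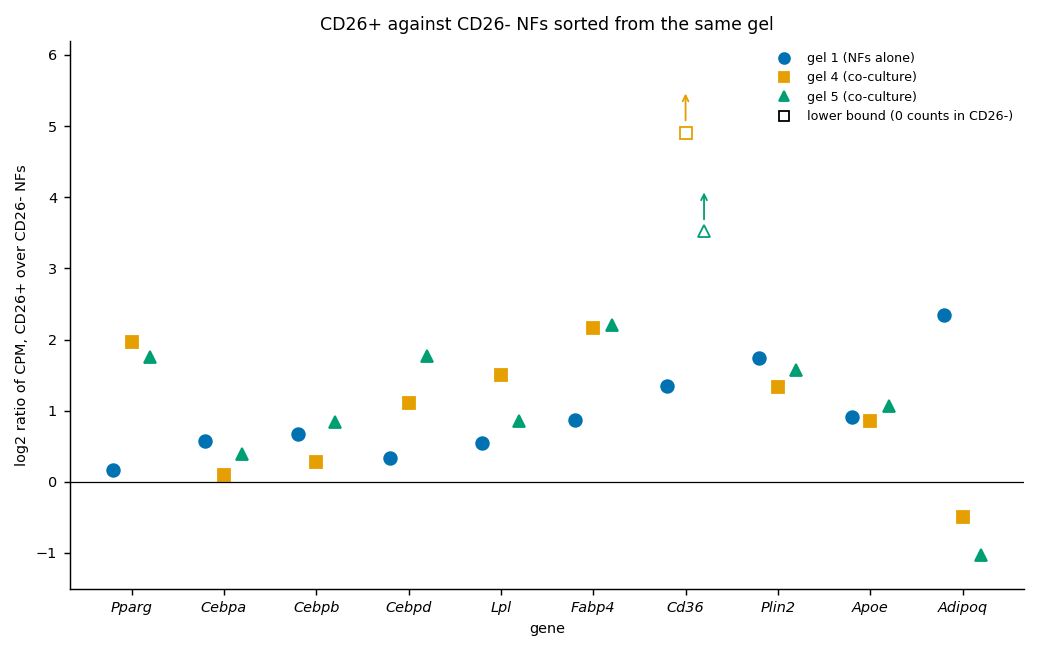
Log2 ratio of CPM in CD26+ over CD26- NFs sorted from the same gel, for each of the 10 genes, with gel 1 (NFs alone) and gels 4 and 5 (co-culture) as separate symbols. Open symbols with arrows are lower bounds where the CD26- library had 0 counts, and 9 genes lie above 0 in all 3 gels, while Adipoq falls below 0 in both co-cultured gels.

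In tumor cells Plin2 and Cebpb were the members with the highest levels, and the rest were low. Cebpa, Cd36 and Adipoq did not pass the filter on low counts. Of the 7 others, Pparg, Lpl and Fabp4 fell and none rose in co-culture, against 11.5% of all 13197 tested genes that fell and 10.8% that rose. Without the line as a term none of the 7 passed in edgeR, and 2207 genes of the whole table had an unadjusted p under 0.05 in that fit, of which 0 passed after adjustment. With DESeq2, 1 of the 7, Fabp4, passed as lower, beside 6.63% of all genes lower and 5.3% higher. Grown alone, NFs were higher than tumor cells in 8 of the 10 genes and lower in Plin2 (28.4% and 27.1% of 17048 genes), where the log2 difference was -1.84 (SE 0.16, adjusted p = 3.04e-05). The Adipoq call, 1 of the 8, was lost with DESeq2 (adjusted p = 0.0577). It was also lost without the 10-SJK-221 library grown alone (log2 difference 2.11) and without the CD26+ library of NFs alone (1.70). In co-culture NFs were higher in 4, Cebpa, Lpl, Fabp4 and Apoe, and lower in none (27.7% and 24.2%). The Plin2 difference in co-culture was -0.35 (SE 0.13, adjusted p = 0.058). With the gel as a block, since these libraries share gels 4 and 5, Cebpb (adjusted p = 0.0479) and Cebpd (adjusted p = 0.00577) were also higher, which made 6 of 9 tested (32.1% of all genes were higher and 27.4% lower in that fit). A test of whether NFs and tumor cells responded differently to co-culture, added after values were seen, passed for 4 of the 10 genes (20.2% of all genes), namely Plin2, Apoe, Fabp4 and Cebpa.

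Ranked per kilobase of exon, the order of levels changed with co-culture. The length was that of all annotated exons of a gene merged. For Fabp4 (4489 bases) it covers the whole gene span, so its level per kb may be too low. Ranks between genes depend on these lengths. In CD26+ NFs alone it ran from Lpl (143 CPM per kb) through Apoe (99.3), Cebpb (51.8), Plin2 (40.2) and Cebpa (30.8) to Pparg (8.77), Cebpd (6.67), Fabp4 (6.32), Adipoq (1.83) and Cd36 (0.352). In co-cultured CD26+ NFs the mean level ran from Plin2 (80.8 CPM per kb) through Cebpb (29.7), Lpl (26.5), Cebpa (12.4), Fabp4 (9.79), Apoe (9.04) and Cebpd (5.38), followed by Cd36 (1.04), Pparg and Adipoq (0.289). Among neighbors in that order, the libraries of Cebpb and Lpl overlapped, as did those of Fabp4 and Apoe and those of Cd36 and Pparg. In CD26- NFs the highest level moved from Lpl (97.4 CPM per kb) alone to Plin2 (29.5) in co-culture, and Lpl (11.8) and Cebpa (10.4) overlapped there. Plin2 also ranked first in tumor cells, at 86.1 CPM per kb alone and 71.4 in co-culture.

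A list of 78 other genes of these pathways had 26 higher and 18 lower in co-cultured NFs of 68 tested, beside 25.9% and 22.9% of all genes, and 4 higher and 1 lower in CD26+ NFs over 3 gels, beside 3.93% and 3.6%. The counts of the single lists for co-culture stand against the same 25.9% and 22.9%, and the lists are small. Among lipoproteins, their receptors and efflux pumps, 8 of 13 rose and 3 fell. Vldlr, a receptor that binds APOE-bearing lipoproteins, went from 52.6 to 323 CPM in the mean over libraries (2.66 on the log2 scale, SE 0.17, adjusted p = 2.66e-06), and Lrp8, a related receptor, rose from 6.17 to 42.4 CPM (2.82, SE 0.35, adjusted p = 0.000159). The scavenger receptor Msr1, a macrophage gene, went from 2 counts in NFs alone to 531 in co-culture (ratio 127, 95% exact interval 34.9 to 1050, counting error only). In the same libraries the macrophage markers Csf1r (1.86 and 2.81 CPM in NFs alone, 7.42 to 13.5 CPM after co-culture), Cd68 (3.48 and 6.53 CPM, then 19.6 to 53.5 CPM) and Itgam (at most 2 counts, then 12 to 25 counts) were also higher. Lyz2 was lower (6.02 and 4.07 CPM, then 0.173 to 0.964 CPM), Adgre1 was at 0, and Ptprc, C1qa and Fcgr1 had at most 4 counts in any NF library (the part of these markers in the result was not tested). The apolipoproteins Apod (59.6 to 0.978 CPM, -5.85 on the log2 scale, SE 0.26, adjusted p = 4.10e-07) and Apoc1 (1.99 to 0.0826 CPM, adjusted p = 0.000418) fell together with Apoe.

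Among droplet coat and lipolysis genes, 2 of 11 rose and 4 fell. The adipocyte droplet coats Plin4 (7.65 to 0.161 CPM, adjusted p = 0.000199) and Plin1 (73 counts to 3, ratio 51.0, 95% exact interval 16.8 to 253, counting error only) fell while Plin2 rose. For LPL handling, Angptl4, which inhibits the lipase, fell in co-cultured NFs in the joint fit (log2 fold change -1.45, SE 0.45, adjusted p = 0.023). In CD26- NFs it went from 143 to 21.7 and 47.0 CPM (-1.98, SE 0.50, adjusted p = 0.00872). The CD26+ libraries went from 125 to 31.8 and 103 CPM, far apart from each other, and did not pass (-0.84, SE 0.51, adjusted p = 0.213). Angptl4 rose in tumor cells from 10.1 to 40.4 CPM (2.14, SE 0.26, adjusted p = 0.00102). Lmf1, which helps the lipase fold, gave 0.05 (SE 0.16, adjusted p = 0.815) in NFs, and Gpihbp1, its anchor on capillaries, was at 0 in all 10 libraries. Of fatty acid uptake and binding genes 5 of 10 rose and 2 fell, with the transporter Slc27a1 going from 15.9 to 46.2 CPM (1.57, SE 0.16, adjusted p = 5.24e-05). Of adipokines and receptors 3 of 4 rose, and Rarres2, which encodes the adipokine chemerin, rose from 149 to 609 CPM (2.08, SE 0.26, adjusted p = 0.000168). Of adipogenic regulators 4 of 17 rose and 5 fell, of triglyceride synthesis genes 1 of 5 rose and 1 fell, and of inhibitors of adipogenesis 3 of 6 rose and 2 fell. Dlk1, a marker of preadipocytes that holds back their differentiation, fell from 10.1 to 0.502 CPM (-4.32, SE 0.34, adjusted p = 1.04e-05).

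Between subsets over 3 gels, the 4 other genes higher in CD26+ NFs were Fabp5, a fatty acid binder related to Fabp4 (log2 difference 1.18, SE 0.15, adjusted p = 0.00415), the phospholipid transfer protein Pltp (0.82, SE 0.18, adjusted p = 0.0299), the cholesterol exporter Abcg1 (0.83, SE 0.20, adjusted p = 0.0395) and Bscl2 (0.69, SE 0.12, adjusted p = 0.014), which encodes seipin, a protein of droplet formation. The acyl-CoA synthetase Acsl4 was lower (-0.52, SE 0.14, adjusted p = 0.0486). Within co-culture, Fabp5 and Bscl2 were higher, and the preadipocyte regulator Ebf1 (41.3 against 87.4 CPM, -1.27, SE 0.25, adjusted p = 0.0091) and the monoglyceride lipase Mgll (27.5 against 42.2 CPM, -0.80, SE 0.21, adjusted p = 0.0441) were lower in CD26+ NFs. In tumor cells 5 of 50 tested genes of the list rose and 11 fell in co-culture, beside 10.8% and 11.5% of all genes. Those that fell included Fabp5 (88.5 to 44.5 CPM, -0.99, SE 0.13, adjusted p = 0.00125) and the lipases Lipe (26.8 to 14.6 CPM, adjusted p = 0.00613) and Pnpla2 (38.0 to 21.1 CPM, adjusted p = 0.00461).

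**Figure D4:**
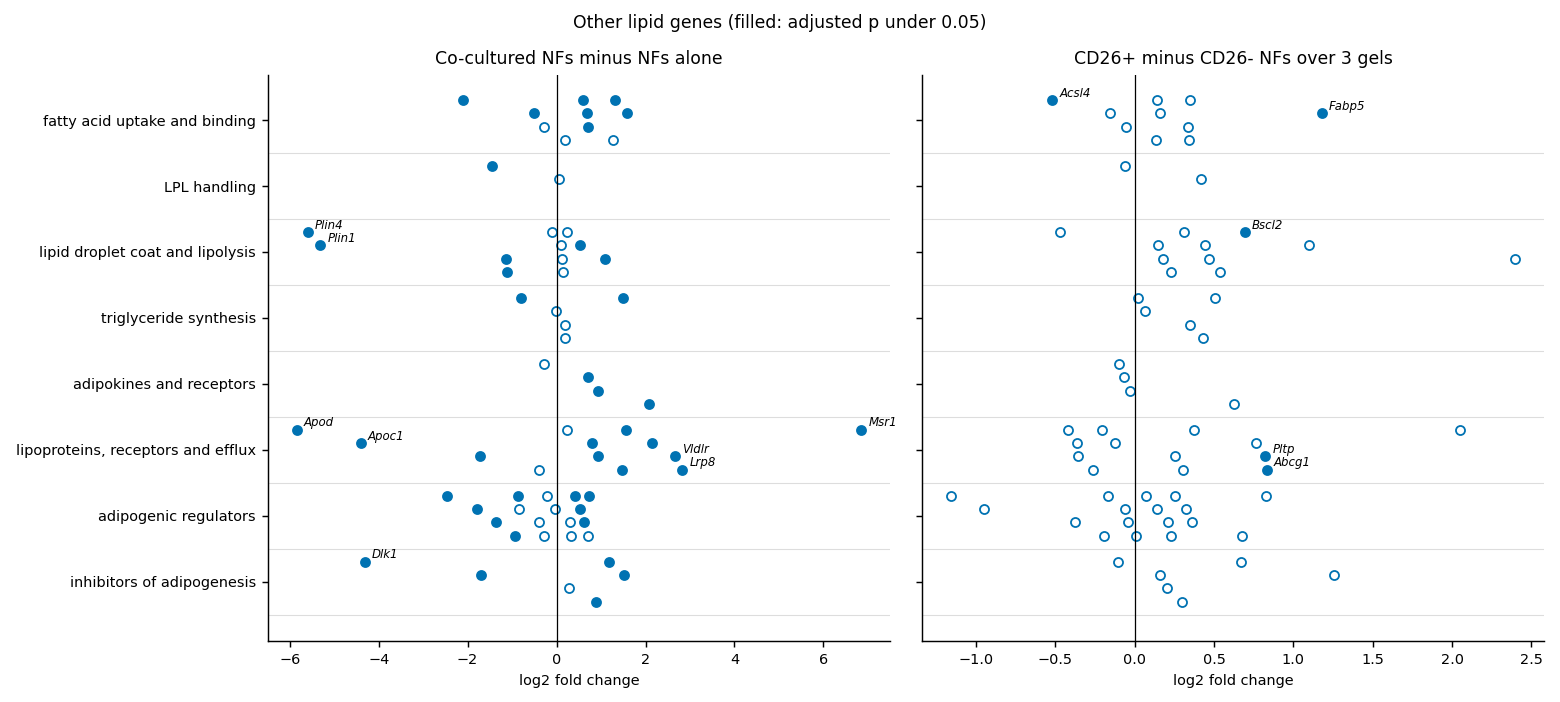
Log2 fold changes of the other lipid genes by list (rows), for co-cultured NFs against NFs alone (left) and CD26+ against CD26- NFs over 3 gels (right), with filled points at an adjusted p under 0.05 and names on filled points beyond 2.5 on the left and on all filled points on the right. Filled points fall on both sides of 0 on the left (26 right, 18 left), and 5 are filled on the right.

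As a description of pattern, each gene was compared over the 10 libraries with 10937 genes that reached 10 CPM, by Pearson correlation of log2(CPM + 1). Serpina3n and Zfp503 were among the genes most like Lpl (r = 0.992 each). Cebpa was most like Cdkn2b (0.999), Hoxc10 and Hoxb8 (0.998 each), a pattern that mostly separates NFs from tumor cells. Apoe was most like Lrrn3 (0.99) and Pparg like Kti12 and Ifih1 (0.978 each). Plin2 was most like Wars (0.979) and Fabp4 like Lamtor3 (0.98). The libraries share gels and depth, and no test was made of these values.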

How the data were processed

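RNA was sequenced from 10 libraries of sorted mouse cells with a stranded mRNA kit. The authors deposited 1 table of raw read counts per gene, without normalization, and the submitters' processing notes name HISAT2 2.2.1 and GRCm38. The program that counted reads, whether it used strand, and the annotation release are not given in the sources used here. Of 55486 gene IDs, 55226 (99.53%) were in GENCODE M21, 99.42% of these with the same coordinates. Each library held 14142334 to 18408940 counts, and CPM used library totals.

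Genes were tested with edgeR 4.0.16 under R 4.3.3 (TMM scaling, filterByExpr, quasi-likelihood F test, Benjamini-Hochberg adjustment over all genes tested, threshold 0.05). The 6 NF libraries were fitted with subset and culture, or as 4 groups. Line and culture were the terms for the 4 tumor libraries. NFs and tumor cells were compared over all 10 libraries as 6 groups. Folds against groups at 0 used 3 counts per library and are lower bounds. The fits were also run on simulated counts with known changes to check the code, and their error rate is not reported here.

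Alternatives were RLE scaling, library totals, other filters, DESeq2 1.42.0, the study's added fold criterion, leaving out libraries or gels, and the gel as a block. Same-numbered libraries came from 1 gel per the labels, and their differences between gels 4 and 5 correlated across 9111 genes (r = 0.302, 0.218 and 0.101). The members and the 8 lists (78 genes) were chosen with earlier results of these data known. All members were named. Other genes were the 5 with the largest change in each direction past the threshold with a group mean of 1 CPM, from which examples are given, plus Angptl4, Lmf1, Gpihbp1, Plin1, Lep and Cfd. Lep had 1 count in 1 library and Cfd at most 0.772 CPM. A further allele of the tumor model is not reported here.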

Additional observations from a re-analysis of the deposited data

Results flagged for a closer look

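The co-culture response (co-culture minus alone, log2) of NFs minus that of tumor cells differed from 0 for 4 of the 10 genes by edgeR with Benjamini-Hochberg adjustment, in a comparison added after values were seen. Plin2 gave 1.49 (SE 0.21, adjusted p = 0.00242), since it rose in NFs of both subsets and was lower in co-cultured tumor cells of both lines. Apoe gave -3.33 (SE 0.31, adjusted p = 0.00037), with a fall in NFs and levels of 7.32 to 11.6 CPM in all tumor libraries. Fabp4 gave 5.45 (SE 0.82, adjusted p = 0.00312) and rests on 0 and 1 counts in co-cultured tumor cells, so its size depends on the prior count of the fit. Cebpa gave -3.33 (SE 0.95, adjusted p = 0.0414) and rests on 0 to 4 counts in every tumor library. The Cebpa call was lost with DESeq2 (adjusted p = 0.0859) and when each of 7 libraries was left out in turn (adjusted p 0.0535 to 0.207). Pparg (-2.60, SE 0.89, adjusted p = 0.0745) did not pass, but did with DESeq2 (adjusted p = 0.026), with the filter of 1 count (adjusted p = 0.00295), without the 10-SJK-221 library grown alone (adjusted p = 0.00741) and without the co-cultured 13-MCB-17 library (adjusted p = 0.0339). Lpl (-1.21, SE 0.82, adjusted p = 0.337) passed without the 13-MCB-17 library grown alone (adjusted p = 0.041).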

How the results depend on the processing

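Of 1040 values of single genes under an alternative, 903 kept their direction and side of the threshold, 92 lost the call, 22 gained one and 23 changed sign. With the study's criterion of an absolute log2 fold change above 2, the genes called fell to 1 over 3 gels, 3 for co-cultured NFs against NFs alone, 2 for the subsets within co-culture, 4 in either subset by culture and 1 in tumor cells. Leaving out 1 library or gel gave 0 to 7 genes over 3 gels, 0 to 5 within co-culture, 5 to 7 in CD26- NFs and 1 to 2 in tumor cells. The lowest values came without gel 5, without either co-cultured CD26+ library, without the CD26- library of gel 4 (which also left 4 within co-culture), and without either 13-MCB-17 library. The tumor count was 1 with DESeq2 and 0 without the line term. With gel as replicate block (paired libraries), 3 genes passed the interaction against 0 without it (2.43% against 0.376% of all genes), and 6 of 9 tested against 4 of 10 were higher in NFs than in tumor cells in co-culture (32.1% against 27.7% of all genes), where Cebpb (adjusted p = 0.0479) and Cebpd (adjusted p = 0.00577) were added. The block changed no other count, and its interaction fit rests on the spread shared over all genes.

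Values that changed sign were uncalled in the reported fits. For Cd36, co-culture gave -3.15 with DESeq2 and -0.44 to 0.62 when 1 gel was left out. Leaving out 1 library moved Cd36 from -1.23 to 0.95 for NFs against tumor cells alone, from -0.66 to 4.45 in co-culture and from -0.67 to 4.95 for the difference of responses. Co-culture for Fabp4 gave -0.030 with library totals, -0.0065 with DESeq2 and -0.17 to 0.26 when 1 gel was left out. The Apoe interaction gave -0.0072 (RLE), -0.021 (1 count filter), -0.0068 (DESeq2) and -0.052 to 0.082 when 1 library was left out, and Apoe in tumor cells -0.53 to 0.40. Ranges were -0.13 to 1.64 for Pparg in NFs against tumor cells in co-culture, -0.13 to 0.26 for Cebpa between subsets in co-culture, -0.33 to 0.053 for the Cebpb interaction, and -2.99 to 0.42 (Cebpd) and -2.16 to 0.42 (Adipoq) for the difference of responses. The cause was not tested.

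Depth limits Cd36, Adipoq and tumor Cebpa and Fabp4, which had few counts. NFs alone had 1 library per subset, so their spread was taken from the other libraries, and the virus, the subset and the gel of NFs alone stay confounded with the comparisons they touch.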
